A study of Mus musculus with 8 samples.

Results

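A set of 8 genes of GDNF-Ret signalling, the pathway that drives branching of the ureteric bud, were followed in whole mouse kidneys at embryonic day 14.5 in a comparison of conditional Mdm4 mutants with wild type. The genes were Gdnf, Ret, Gfra1, Etv4, Etv5, Spry1, Tmem59l and Dusp4. They were found through the RefSeq accession of each non-control probe, which gave 11 probes, and all 8 genes passed the filter on dim probes, out of 22911 named genes on the array, of which 16013 were tested. The array held 56605 non-control probes in all. In mutants, a Hoxb7Cre transgene deleted a conditional allele of Mdm4, whose product restrains p53, while the controls were labelled wild type with no further allele named. Hoxb7Cre acts in the ureteric bud and its descendants, so a whole kidney also holds many cells in which Mdm4 was not targeted. There were 4 mutant and 4 wild-type RNAs in 4 pairs, and the 2 RNAs of a pair shared 2 arrays with exchanged dyes, which were averaged to give n = 4 pairs.

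GDNF is secreted by the metanephric mesenchyme and binds the co-receptor GFRA1, which brings it to the receptor tyrosine kinase RET on cells at the tips of the ureteric bud. RET then signals through the RAS-MAPK and PI3K routes, and the ETS transcription factors ETV4 and ETV5 carry much of the response in the tip, where they favour growth and movement of tip cells. Sprouty proteins and dual-specificity phosphatases dampen the same signal.

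Each array held 62976 spots, and 60.7% to 70.2% of the non-control spots were well above background in a channel, with 0 saturated. Ratios of the same pair on its 2 dye-swapped arrays correlated at 0.10 to 0.55 across kept probes. Arrays of different pairs correlated at -0.07 to 0.47 with the same dye orientation and at -0.39 to 0.06 with the opposite one. Each orientation filled its own row of the slide, so dye and slide row cannot be told apart. Mdm4 was at -0.18 ± 0.07 (log2 mutant over wild type, SE, n = 4 pairs, limma adjusted p = 0.471). Since no source used here places its probe inside or outside the deleted stretch, this value does not check the labels. The Y-linked gene Eif2s3y was at 3.91, 2.26, -2.02 and 4.09 in pairs 1 to 4, so the RNAs of a pair differed in sex-linked transcripts, and pair 3 did so in the opposite direction.

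Most of the pathway's tip genes were lower in mutant kidneys, but none passed the test across all genes. Of the 8 genes, 7 had a mean log2 ratio below 0, where 46.1% of all tested genes did. In all 4 pairs 6 were lower, against 7.84% of all tested genes, and 0 were higher in every pair, against 12.1%. Some of these values lay close to 0, as for Etv5 in pair 2 (-0.0061). Etv4 was at -0.03 in pair 3, where its other probe was at 0.29. The largest mean differences were those of Etv4 (-0.57 ± 0.19, SE), Tmem59l (-0.57 ± 0.15) and Gfra1 (-0.52 ± 0.12), which correspond to 0.673, 0.675 and 0.695 times the wild-type level. The median over the 8 genes was -0.28, and that of all tested genes was 0.01. In bulk RNA, fewer cells of a type and less RNA per cell cannot be told apart.

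Limma's moderated test with Benjamini-Hochberg adjustment over 16013 genes called 0 of the 8 genes, as it called 0 of all genes (0%). Their adjusted p ran from 0.391 for Gfra1 to 0.989 for Spry1. At an unadjusted p under 0.05 there were 5 of the 8, all lower, namely Gfra1, Tmem59l, Etv4, Dusp4 and Gdnf. Over all genes 3.6% were lower at that threshold and 10.6% (1699 genes) passed it in either direction. An exact two-sided sign-flip test over the 4 pairs gave p = 0.125 for each of the 6 genes lower in every pair, which is the smallest p that 4 pairs allow.

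**Figure D1:**
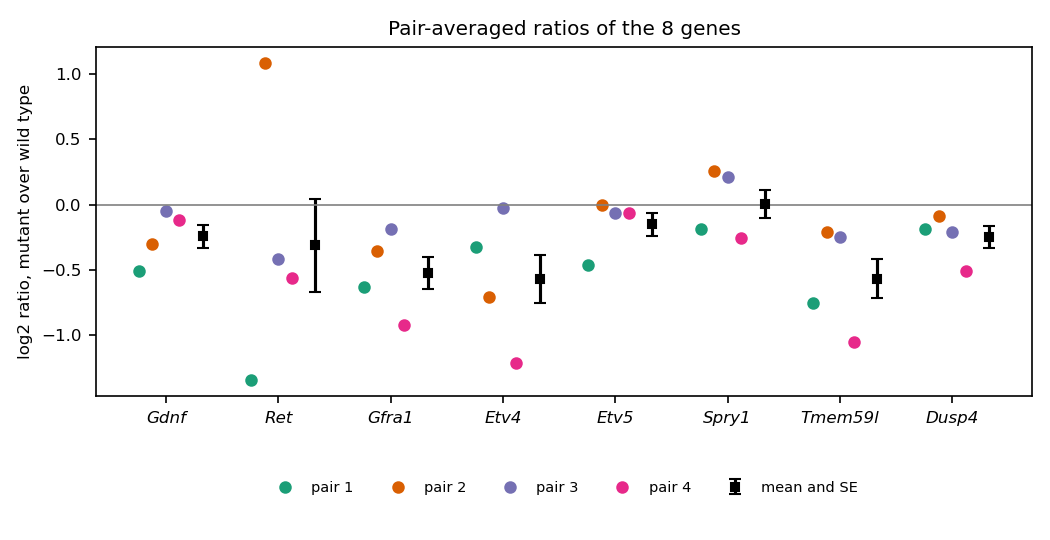
Log2 ratio of mutant over wild type (y axis) for each of the 8 genes (x axis), with 1 coloured point per pair (mean of its 2 dye-swapped arrays). A black square gives the mean with limma's moderated standard error. Gfra1, Etv4, Tmem59l, Dusp4, Gdnf and Etv5 lie below 0 in every pair, whereas Ret spans -1.35 to 1.09 and Spry1 lies on both sides of 0.

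Gdnf, the ligand, comes from the mesenchyme around the bud rather than from the Cre-expressing epithelium. On its brighter probe the log2 normalised intensity was 12.46, 12.82, 12.80 and 13.02 in the mutant RNAs of pairs 1 to 4, against 12.97, 13.12, 12.85 and 13.13 in the wild-type RNAs. The mutant RNA of pair 1 was the lowest of the 8, and the 2 genotypes overlapped. The log2 ratio was -0.51, -0.30, -0.05 and -0.12 in pairs 1 to 4, with a mean of -0.24 ± 0.09 (SE, n = 4, 95% interval -0.46 to -0.03, limma adjusted p = 0.442).

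A second, dimmer Gdnf probe, well above background in 7 of 8 mutant channels and 8 of 8 wild-type channels, did not overlap between genotypes. It was at 7.56, 7.65, 7.61 and 7.02 in the mutant RNAs, against 7.93, 7.87, 7.77 and 7.71 in the wild-type RNAs. Its mean log2 ratio was -0.36, and the order of the pairs differed from that of the brighter probe, with pair 4 at -0.70. The brighter probe minus the dimmer one differed by -0.15 to 0.58 between pairs (exact sign-flip p = 0.75, where 4 pairs allow no p below 0.125). The brighter probe differed between the orientations, and averaged -0.11 with mutant RNA in Cy5 and -0.38 with it in Cy3.

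Gfra1, the co-receptor that binds GDNF, was lower in mutant RNA on every array and on both of its probes. Its brighter probe was at 9.80, 10.13, 10.08 and 9.60 in the mutant RNAs of pairs 1 to 4, against 10.43, 10.49, 10.26 and 10.52 in the wild-type RNAs, so that every mutant RNA lay below every wild-type RNA. The share of all probes without overlap, as here and for the dimmer Gdnf probe, was not counted. So the lack of overlap has no background to be read against. The log2 ratio was -0.63, -0.36, -0.19 and -0.92, with a mean of -0.52 ± 0.12 (SE, n = 4, 95% interval -0.82 to -0.23, limma unadjusted p = 0.00492). This placed Gfra1 at rank 201 of 16013 genes by p.

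The other Gfra1 probe was at -0.52, -0.18, -0.07 and -0.49 in pairs 1 to 4. Both probes were below 0 on 8 of 8 arrays. The brighter probe was further from 0 in each pair, by 0.21 on average (mean difference -0.21, exact sign-flip p = 0.125, the smallest possible). On the dimmer probe the genotypes overlapped, because the mutant RNA of pair 2 (9.54) lay above the wild-type RNAs of pairs 3 and 4 (9.49 each).

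Ret, the receptor tyrosine kinase, was represented by 1 probe through its RefSeq accession, so no second probe could be set beside it. Its log2 normalised intensity was 8.62, 9.47, 9.42 and 9.50 in the mutant RNAs of pairs 1 to 4, against 9.96, 8.38, 9.84 and 10.06 in the wild-type RNAs. A single RNA of each genotype stood apart at the low end, the mutant RNA of pair 1 and the wild-type RNA of pair 2. The other 3 mutant RNAs lay within 9.42 to 9.50 and the other 3 wild-type RNAs within 9.84 to 10.06.

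The Ret ratio was therefore -1.35, 1.09, -0.42 and -0.57 in pairs 1 to 4, with a mean of -0.31 ± 0.36 (SE, n = 4) and a 95% interval from -1.18 to 0.56. This SE and interval use limma's moderated variance, and both are narrower than the spread of the 4 pairs alone would give. The 2 dye-swapped arrays gave like values in the pairs that stood apart, with -1.16 and -1.54 in pair 1 and 1.02 and 1.15 in pair 2 (mutant RNA in Cy5 first). The SD of 1.02 between pairs was reached or passed by 112 of 16013 genes (0.699%), where the median SD was 0.14. Without pair 1 the mean was 0.033 and without pair 2 it was -0.78, so a single pair decided its direction. The interval spans 0.441 to 1.47 times the wild-type level.

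**Figure D2:**
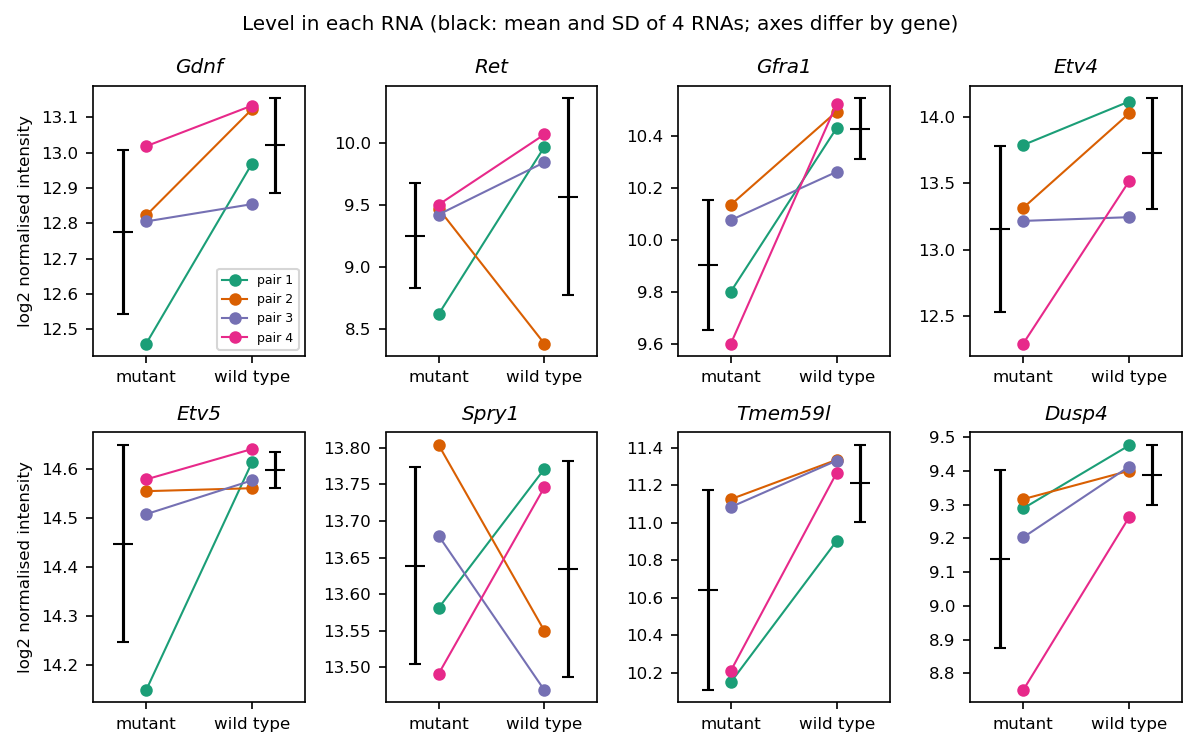
Log2 normalised intensity (y axis, scale differing by gene) of each of the 8 genes in the mutant RNAs (left) and wild-type RNAs (right), with lines joining the RNAs of a pair and black bars for the mean and SD of 4 RNAs, on the brightest probe of each gene. For Gfra1 all mutant RNAs lie below all wild-type RNAs, and for Ret the mutant RNA of pair 1 (8.62) and the wild-type RNA of pair 2 (8.38) lie apart from the rest.

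Etv4 and Etv5 encode ETS transcription factors that RET signalling induces in the tip. Etv4 was at 13.79, 13.31, 13.22 and 12.29 in the mutant RNAs of pairs 1 to 4, against 14.11, 14.02, 13.25 and 13.51 in the wild-type RNAs. The mutant RNA of pair 4 was the lowest of the 8 RNAs, and the wild-type RNA of pair 3 was the lowest of its genotype, so the groups overlapped. The log2 ratio was -0.33, -0.71, -0.03 and -1.22, with a mean of -0.57 ± 0.19 (SE, n = 4, 95% interval -1.02 to -0.12, limma adjusted p = 0.425).

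The other Etv4 probe had a like mean of -0.55 and the same order of pairs, from pair 4 (-1.42) to pair 3, where it was at 0.29. In pair 3 it gave 0.87 with mutant RNA in Cy5 and -0.29 with it in Cy3. Both Etv4 probes showed the wild-type RNA of pair 3 at the low end of its genotype (13.25 and 10.77).

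Etv5 varied less between RNAs. It was at 14.15, 14.56, 14.51 and 14.58 in the mutant RNAs, against 14.61, 14.56, 14.58 and 14.64 in the wild-type RNAs, and only the mutant RNA of pair 1 stood clear of the others. The ratio was -0.47 in pair 1 and between -0.07 and -0.0061 in pairs 2 to 4, with a mean of -0.15 ± 0.09 (SE, n = 4, 95% interval -0.37 to 0.07). Its sign differed between the array orientations, with a mean of 0.07 when mutant RNA was in Cy5 and -0.37 when it was in Cy3. With median centring in place of loess Etv5 averaged 0.02, while all genes had a median of 0.14. The log2 ratio of Etv4 minus that of Etv5 was 0.14, -0.70, 0.04 and -1.16 in pairs 1 to 4, below 0 in pairs 2 and 4 and above 0 in pairs 1 and 3 (exact sign-flip p = 0.50, where 4 pairs allow no p below 0.125).

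Tmem59l encodes a membrane protein and is known as a transcript of the ureteric tip. It was at 10.15, 11.13, 11.08 and 10.21 in the mutant RNAs of pairs 1 to 4, against 10.90, 11.34, 11.33 and 11.27 in the wild-type RNAs. The mutant RNAs of pairs 1 and 4 were the lowest, and the groups overlapped through the low wild-type RNA of pair 1. The log2 ratio was -0.75, -0.21, -0.25 and -1.06, with a mean of -0.57 ± 0.15 (SE, n = 4, 95% interval -0.93 to -0.20, limma unadjusted p = 0.00888).

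The inhibitors among the 8 genes were Dusp4 and Spry1, and the difference between them was not tested. Dusp4, which encodes a nuclear phosphatase that inactivates ERK, was at 9.29, 9.32, 9.20 and 8.75 in the mutant RNAs, against 9.48, 9.40, 9.41 and 9.26 in the wild-type RNAs. The mutant RNA of pair 4 was the lowest, and the groups overlapped. Its log2 ratio was -0.19, -0.08, -0.21 and -0.51, with a mean of -0.25 ± 0.08 (SE, n = 4, 95% interval -0.45 to -0.05, limma adjusted p = 0.425).

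Spry1 encodes a cytoplasmic antagonist of receptor tyrosine kinase signalling, and its loss in mice makes the Wolffian duct over-responsive to GDNF. It was at 13.58, 13.80, 13.68 and 13.49 in the mutant RNAs, against 13.77, 13.55, 13.47 and 13.75 in the wild-type RNAs. The log2 ratio was -0.19 and -0.25 in pairs 1 and 4 but 0.25 and 0.21 in pairs 2 and 3. The mean was 0.0052 ± 0.11 (SE, n = 4), with a 95% interval of -0.25 to 0.26, so Spry1 lay between 0.841 and 1.20 times the wild-type level. Pairs 1 and 4, in which Spry1 was lower, were also the pairs with the lowest Gfra1 and Tmem59l ratios. They also had the highest ratios of the Y-linked gene Eif2s3y (3.91 and 4.09). With the Y-linked ratio as a covariate, Gfra1 was at -0.34, Tmem59l at -0.36 and Spry1 at 0.14. The part of sex-linked differences in this pattern over pairs was not tested.

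**Figure D3:**
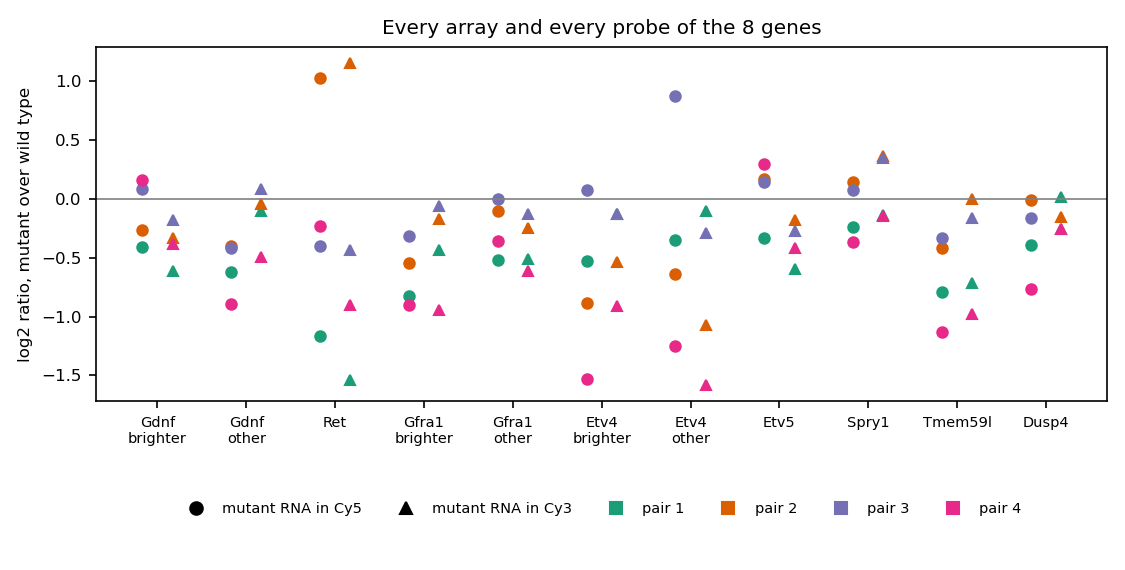
Log2 ratio of mutant over wild type (y axis) on each of the 8 arrays for all 11 probes of the 8 genes (x axis), with circles for arrays with mutant RNA in Cy5, triangles for mutant RNA in Cy3, and colours for the pairs. Both Gfra1 probes are below 0 on 8 of 8 arrays, Etv5 is above 0 on 3 of 4 arrays with mutant RNA in Cy5 and below 0 on 4 of 4 with it in Cy3, and the Ret values of pairs 1 and 2 lie far apart in both orientations.

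Start sites of Gfra1, Tmem59l and Spry1 are shown because the first pair were the members with the smallest p and Spry1 was the one with a mean at 0. RefSeq start sites of build GRCm38.p6 matched 5 of the 8 genes (Gdnf, Gfra1, Etv5, Spry1 and Tmem59l) with 7 start sites, and each window runs from 250 bases before to 50 after the start. The array design refers to another build. Windows are printed 5′ to 3′ on the gene's strand, and capitals mark letters that match AGGAAG or CCGGAA, both of which hold the GGAA core that ETS factors bind. The windows are chr19:58455349-58455648 on the minus strand for Gfra1, chr8:70487299-70487598 on the minus strand for Tmem59l and chr3:37639697-37639996 on the plus strand for Spry1.
Gfra1: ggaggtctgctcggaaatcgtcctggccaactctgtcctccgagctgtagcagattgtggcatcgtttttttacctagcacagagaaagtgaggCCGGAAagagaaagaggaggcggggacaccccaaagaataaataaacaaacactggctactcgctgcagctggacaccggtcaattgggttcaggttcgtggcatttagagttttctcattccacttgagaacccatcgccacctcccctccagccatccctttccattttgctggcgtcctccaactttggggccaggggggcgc
Tmem59l: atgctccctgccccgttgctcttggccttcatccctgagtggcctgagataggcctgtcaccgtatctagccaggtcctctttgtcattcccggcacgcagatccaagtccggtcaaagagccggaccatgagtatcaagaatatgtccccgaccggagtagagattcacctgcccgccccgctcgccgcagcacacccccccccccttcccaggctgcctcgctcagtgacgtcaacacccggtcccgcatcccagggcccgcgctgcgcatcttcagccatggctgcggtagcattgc
Spry1: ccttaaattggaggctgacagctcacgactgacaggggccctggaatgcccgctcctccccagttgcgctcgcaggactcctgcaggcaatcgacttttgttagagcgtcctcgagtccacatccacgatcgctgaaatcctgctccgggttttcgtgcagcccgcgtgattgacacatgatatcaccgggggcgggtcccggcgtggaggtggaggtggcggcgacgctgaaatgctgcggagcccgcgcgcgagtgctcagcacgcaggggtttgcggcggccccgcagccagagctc

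AGGAAG, searched on both strands, was found in 35.4% of 32851 mouse start-site windows of the same length and CCGGAA in 14.9%. Of the 7 windows of the members, 2 held AGGAAG (1 each for Gdnf and Etv5) and 1 held CCGGAA (Gfra1). Either motif stood in 3 of the 7 windows, against 45.2% of all windows. The matches describe letters and are not binding sites.

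Other genes of the pathway did not share one direction. Among 12 further Ret-dependent and tip genes, 9 had a mean below 0 and 4 were lower in all 4 pairs. The list median was -0.15, and it was -0.065 with the Y-linked ratio as a covariate. With median centring it was -0.0033, where all genes had a median of 0.14. None of the 12 passed limma's test over all genes. Sox8, a transcription factor gene of the tip, was at -0.40 ± 0.09 (SE) and the chemokine receptor gene Cxcr4 at -0.25 ± 0.06 (limma adjusted p 0.361 and 0.367). Sox8 was at -0.64, -0.25, -0.21 and -0.52 in pairs 1 to 4, again lowest in pairs 1 and 4, the pairs with the highest Eif2s3y ratios. Sox9, another tip gene, was at -0.02 ± 0.12 and Adamts18 at 0.30 ± 0.12.

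Feedback inhibitors of receptor tyrosine kinases other than Spry1 and Dusp4 numbered 13, of which 6 had a mean below 0 and 2 were higher and 3 lower in every pair. Their median was 0.02, and -0.02 without pair 3. The named ones were the phosphatase genes Dusp9 at -0.22 ± 0.10 and Dusp5 at -0.12 ± 0.07 and Spry3 at 0.13 ± 0.06 (SE, limma adjusted p 0.496 to 0.549). Dusp6, a cytoplasmic ERK phosphatase and a target of the same signal, was at 0.02 ± 0.08. Dusp6 and Spred2 also stand in the list of Ret-dependent genes.

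Adaptors and effectors of RET, 24 of 25 measured, had a median of -0.01, with 10 genes above 0 and 14 below. Shc1, an adaptor that links RET to RAS, was at 0.22 ± 0.07, the kinase gene Akt1 at -0.19 ± 0.09 and the docking protein gene Gab1 at 0.11 ± 0.06 (SE, limma adjusted p 0.425 to 0.561). Among 7 measured ligands and receptors of the GDNF family outside the members, 4 were above 0 and 3 below. Gfra4, the co-receptor for persephin, was at -0.44 ± 0.13 and lower in every pair. Gfra2 and Gfra3, the co-receptors for neurturin and artemin, were at 0.40 ± 0.13 and 0.37 ± 0.13, and were above 0 in pairs 1, 2 and 4 but at -0.09 and -0.11 in pair 3.

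Regulators of Gdnf or of its reach had a median of -0.05 over 18 genes, with 8 above 0 and 10 below. In every pair 4 were higher, and among them were Slit2, whose product limits the Gdnf domain through ROBO2, at 0.44 ± 0.12, and the integrin gene Itga8 at 0.29 ± 0.09 (SE, limma adjusted p 0.403 and 0.424). Regulators of Ret had a median of -0.09 over 9 genes, with 6 below 0. It was -0.024 without pair 4 and -0.14 without pair 2, and on arrays of 1 orientation it was -0.29 with mutant RNA in Cy5 and -0.0019 with it in Cy3. Lhx1, a transcription factor gene of the bud, was at -0.26 ± 0.08 and lower in every pair. Gata3, which maintains Ret in the duct epithelium, was at -0.48 ± 0.16, with 0.07 in pair 3, and the retinoic acid receptor gene Rarb was at 0.10 ± 0.06 (SE, limma adjusted p 0.406 to 0.548). With median centring in place of loess the medians of both regulator lists were above 0 (0.12 and 0.08), on a scale that put all genes at a median of 0.14. The median for the Gdnf regulators was also above 0 without pair 3 (0.03) and in each dye orientation alone (0.06 and 0.05).

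Markers of the cells that hold the pathway were measured beside it. Of 13 markers of the ureteric epithelium 12 had a mean below 0, and the list median was -0.55, -0.28, 0.09 and -0.25 in pairs 1 to 4. The median of the gene means was -0.14 and -0.24 without pair 3. With the Y-linked ratio as a covariate it was 0.0082, where all genes had a median of 0.02. With median centring it was -0.011, where all genes had a median of 0.14. The summed normalised intensity of the list ran from 84598 to 101100 in mutant RNAs, against 95192 to 139330 in wild-type RNAs. Wnt9b, a signal from the bud to nephron progenitors, was at -0.60 ± 0.15, and the keratin genes Krt8 and Krt18 were at -0.42 ± 0.12 and -0.42 ± 0.13 (SE, limma adjusted p 0.397 to 0.424). The part of this shift in the values of the tip genes was not tested. The same median for the 8 pathway genes was -0.49, -0.15, -0.13 and -0.54 in pairs 1 to 4.

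Set against the ureteric median within each pair, Gfra1 was lower by a further log2 ratio of -0.08, -0.08, -0.28 and -0.67 in pairs 1 to 4 (mean -0.28 ± 0.28, SD, n = 4, exact sign-flip p = 0.125, the smallest possible). Tmem59l was at -0.32 ± 0.37 and Etv4 at -0.32 ± 0.50 on this scale, neither with 1 sign in every pair. Dusp4 was at -0.0012 ± 0.33 and Etv5 at 0.10 ± 0.19. Spry1 was at 0.36, 0.54, 0.12 and -0.0018 in pairs 1 to 4 relative to the ureteric median (mean 0.25 ± 0.24, SD, exact p = 0.25).

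Gdnf was compared with the cap mesenchyme that makes it. The 6 markers of that tissue had a median of 0.25, 0.014, -0.34 and 0.014 in pairs 1 to 4, and 4 of the 6 had a mean below 0. The median of the gene means was -0.10, and it was above 0 without pair 3 (0.0094), with median centring (0.073) and on arrays with mutant RNA in Cy5 alone (0.053). Median centring put all genes at a median of 0.14, above that of these markers. Six2, Eya1 and Osr1 were at -0.12 ± 0.09, -0.09 ± 0.11 and -0.26 ± 0.17, Cited1 at 0.16 ± 0.08, Meox1 at 0.25 ± 0.15 and Crym at -0.11 ± 0.06 (SE, limma adjusted p 0.518 to 0.773). Their summed intensity ran from 121350 to 128990 in mutant RNAs, against 115230 to 145820 in wild-type RNAs. Gdnf minus this median was -0.76, -0.31, 0.29 and -0.13 (mean -0.23 ± 0.44, SD, n = 4, exact sign-flip p = 0.375, where 4 pairs allow no p below 0.125). It was below 0 in pairs 1, 2 and 4 and above 0 in pair 3.

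Markers of other cell types were measured too, and none passed limma's test over all genes. All 8 markers of renal stroma had a mean above 0 and 5 were higher in every pair, with medians of 0.36, 0.27, 0.17 and 0.40 in pairs 1 to 4, and Lum at 0.67 ± 0.10, Dcn at 0.46 ± 0.11 and Col3a1 at 0.36 ± 0.05 (limma adjusted p 0.232 to 0.376). Their summed intensity ran from 130590 to 199960 in mutant RNAs, against 108980 to 142850 in wild-type RNAs. All 10 macrophage markers had a mean above 0 (median 0.27), with summed intensities of 10784 to 15430 in mutant RNAs, against 8672 to 11647 in wild-type RNAs. Tyrobp, Cx3cr1 and Aif1 were at 0.34 ± 0.09, 0.36 ± 0.12 and 0.27 ± 0.08.

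Autonomic neurons and glia express Ret and Gfra1 as well. Of 18 markers 14 were measured, and Hand2, Chrna3 and Isl1 were among those that did not pass the filter on dim probes. Their median was 0.11, 0.0011, 0.09 and 0.05 in pairs 1 to 4, and their summed intensity ran from 7395 to 9795 in mutant RNAs, against 6759 to 7936 in wild-type RNAs. S100b was at 0.45 ± 0.10, Dbh at 0.29 ± 0.10 and Fabp7 at 0.20 ± 0.08. Of the 14 markers 10 had a mean above 0 and 4 below. In pair 2, where Ret was at 1.09, the neuronal genes Stmn2, Phox2a, Th, Tubb3 and Gap43 were at -0.22, -0.07, -0.14, -0.23 and -0.18. Elavl3, Elavl4 and Prph were at 0.05, 0.12 and 0.03 in that pair. In pair 1, where Ret was at -1.35, Stmn2, Phox2a, Th, Elavl3 and Prph were at 1.14, 0.08, 0.13, 0.10 and 0.57. Elavl4, Tubb3 and Gap43 were at -0.16, -0.06 and -0.12 there. Dbh was at 0.47 in pair 1 and -0.08 in pair 2. Adrenal cortex genes (4 of 6 measured) had a median of -0.06, with Cyp17a1 at -0.55 ± 0.15, Star at -0.09 ± 0.06 and Cyp21a1 at -0.03 ± 0.06, and red blood cell genes (7 of 8 measured) a median of -0.01, with Alas2 at -0.04 ± 0.10 and Hbb-y at -0.03 ± 0.14. The part of any of these cell types in the values of the pathway genes was not tested.

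**Figure D4:**
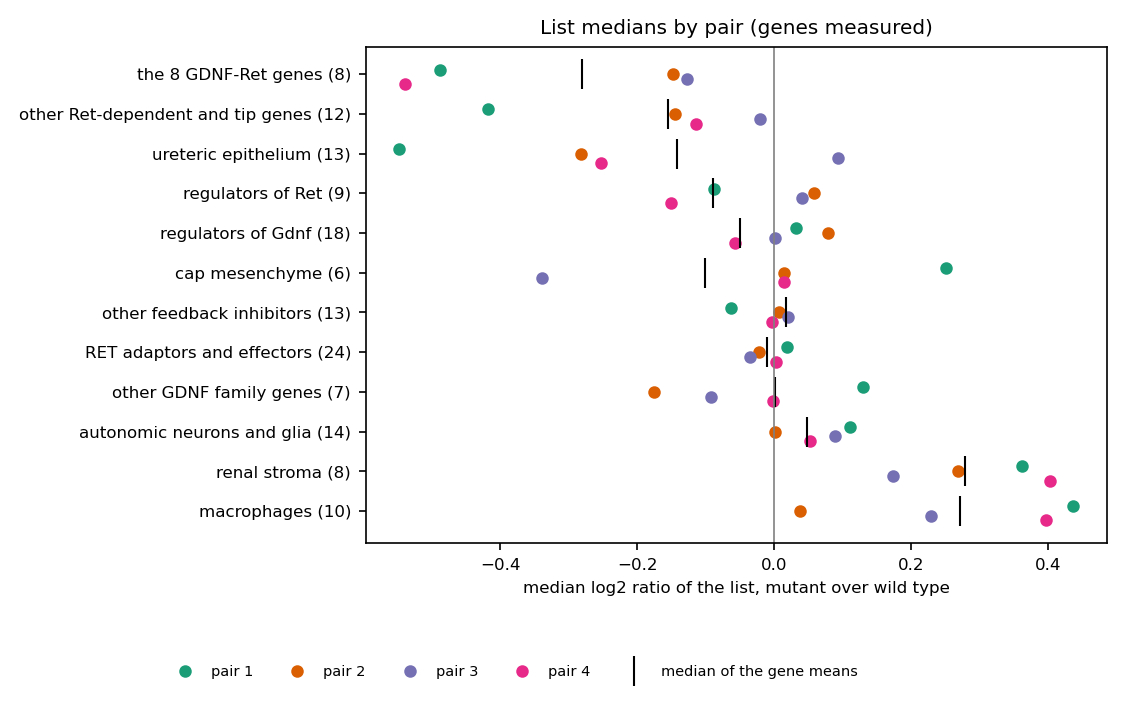
Median log2 ratio of mutant over wild type (x axis) of each gene list (y axis, with the number of genes measured), as 1 coloured point per pair and a black tick for the median of the gene means. The median of the 8 GDNF-Ret genes lies below 0 in every pair, from -0.54 to -0.13. That of the ureteric epithelium markers is below 0 in pairs 1, 2 and 4 and at 0.09 in pair 3. The medians of stroma and macrophage markers are above 0 in every pair.

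The genes whose ratios lay nearest to a member over all 8 arrays were taken by root mean square difference on the log2 scale. The search left out the 8 members and genes whose symbol is an accession, clone or predicted-gene name. A gene left out may therefore lie nearer than those named. For Gfra1 they were the membrane protein gene Tmem54 (0.16), Lad1, which encodes ladinin (0.19), and the leptin receptor gene Lepr (0.19), where the median gene lay at 0.65. For Etv4 they were Mpst (0.28), Krtap19-4 (0.29) and the Wnt signalling gene Dvl3 (0.29), where the median gene lay at 0.79. For Ret they were the pseudogene Pisd-ps3 (0.50), the receptor gene Gpr157 (0.58) and the olfactory receptor gene Olfr1466 (0.61), where the median gene lay at 0.98. Pisd-ps3 was at -1.31, 1.24, -0.05 and -0.24 in pairs 1 to 4, close to Ret in pairs 1 and 2 and further from it in pairs 3 and 4. It belongs to a family of near-identical copies that 1 probe may not separate.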

How the data were processed

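Total RNA from whole embryonic kidneys was labelled from 100 ng as Cy3 or Cy5 cRNA and hybridised in 4 pairs, each on 2 dye-swapped arrays, per the labels' protocols. Pooling of embryos within an RNA is not stated, so p-values cover the spread among 4 pairs, part of which may be technical. All 8 arrays lay on 1 slide per the file headers, with 1 dye orientation in each row of the slide, so dye and slide row cannot be told apart. The deposited scanner files hold median spot and background intensity per channel as written by Agilent Feature Extraction (10.7.3.1 per the file headers, 8.5.1.1 per the submitters' processing notes). In the deposited table of the whole series the values are log10 of Cy5 over Cy3, not turned for the dye swap, with a median of 0 in each column, and differed from the scanner files' log ratio by at most 0.0050.

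Intensities were corrected with normexp (offset 50) and normalised by loess within each array in limma 3.58.1 (R 4.3.3). Control spots (3671) and outlier spots (95 to 156 per array) had weight 0 and were then left out, and no spot of the 8 genes was dropped. Ratios were turned to mutant over wild type and averaged over the 2 arrays of a pair. Probes were kept where 6 or more of 8 mutant, or of 8 wild-type, channels were well above background (34594 of 56605 probes). Of all probes, 58.3% were named through their RefSeq accession, and each gene was represented by its brightest kept probe. Levels are log2 channel intensities after loess and quantile normalisation of the array averages, with the 2 dyes of an RNA averaged. They are not compared between probes.

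The lmFit and eBayes steps of limma tested the ratios against 0, two-sided, adjusted over all 16013 genes, and the steps were tested on simulated data. A planned comparison among Ret probes could not be made with 1 probe, and probes of Gdnf, Gfra1 and Etv4 were compared in its place, chosen after their values were seen, as was the comparison of Etv4 with Etv5. Named genes are the 8 members, Mdm4, up to 3 genes per list, taken by smallest p (a few of these are not reported here), and the 3 nearest genes of Etv4, Gfra1 and Ret. Others (Eif2s3y, Six2, Eya1, Osr1, Sox9, Adamts18, Dusp6, Stmn2, Phox2a, Th, Elavl3, Elavl4, Prph, Tubb3, Gap43) were chosen after their values were seen. The members and the lists were chosen with earlier results of these data known, so their direction is no independent support. Dye-swapped arrays of a pair hold the same RNAs, and their deviations from the orientation means correlated at 0.57 to 0.87.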

Additional observations from a re-analysis of the deposited data

Results flagged for a closer look

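In 48 sets of 4 values (pair ratios, mutant levels and wild-type levels of each probe of the 8 genes, and the list medians), 6 had 1 value far from the other 3, judged by the gap to its nearest neighbour as a share of the whole range. Chance alone flags about 1 in 20 such sets if the values are independent and normally distributed. Ratios and levels here come from the same RNAs, so the sets are not independent. The count of 6 in 48 is therefore no test against chance.

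Ret had a value far from the rest in both genotypes. The mutant RNA of pair 1 lay at 8.62 and its gap took 0.91 of the range of mutant levels, and the wild-type RNA of pair 2 lay at 8.38 with a gap of 0.867 of the range. Etv5 was flagged through the mutant RNA of pair 1, at 14.15 with a gap of 0.835, and through the ratio of that pair, at -0.47 with a gap of 0.865. The dimmer Gdnf probe was flagged for the mutant RNA of pair 4 (7.02, gap 0.867), and Tmem59l for the wild-type RNA of pair 1 (10.90, gap 0.84).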

How the results depend on the processing

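Under 17 alternatives to the processing, none of the 8 genes passed limma's threshold, and the adjusted p of a member was never below 0.0917 (Gdnf, on arrays with mutant RNA in Cy3 alone). Gdnf, Gfra1, Etv4, Tmem59l and Dusp4 kept their direction in all 17, with log2 ratios of -0.38 to -0.07, -0.65 to -0.34, -0.75 to -0.34, -0.69 to -0.36 and -0.33 to -0.14. Etv5 turned to 0.020 with median centring and to 0.067 with mutant RNA in Cy5 alone. Spry1, whose mean was near 0, turned to -0.0079 after centring every pair on its own median and to -0.097 with mutant RNA in Cy5 alone. With 1 pair left out, Ret ran from -0.78 (without pair 2) to 0.033 (without pair 1), also in the fit over probes, and Spry1 from -0.078 (without pair 2) to 0.092. Without pair 3 Spry1 was at -0.063. The cause of these turns was not tested.

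The number of genes called over the whole array was 0 in the reported fit, 42 with median centring and 39 in a fit of all 8 arrays with dye as a term and a replicate block for the pair. None of the 8 genes was among them. The number of members below 0 was 7 as reported and 6 to 8 over the alternatives. With the Y-linked ratio as a covariate the median of the 8 genes was -0.18, against -0.28 without it. Over the runs with 1 pair left out this median ran from -0.41 to -0.21. Precision is limited by having 4 pairs: over all genes the median SE was 0.07.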
